A study of Mus musculus with 17 samples.

Results

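Atoh8, a transcription factor gene of the BMP/SMAD response, was described in edited mouse hepatocytes together with 9 other genes of the same axis. These were Id1, Id2, Id3, Smad6, Smad7, Hamp, Hfe, Tfr2 and Tmprss6, so that 10 of the 55536 genes in the tables were members. Atoh8 was selected by its rise in the comparison given here, and its values are therefore a description with no test. The other 9 genes were picked by function, as BMP/SMAD response or iron sensing genes, and with earlier results of these data known. All 10 matched a gene identifier by symbol and all 10 passed the filter on low counts that left 14393 genes to test. The question was whether the rise of Atoh8 goes with that of other BMP targets, within a run (the r-number in the library names).

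RNA-seq covered 11 libraries of hepatocytes, which were freed from the liver by collagenase perfusion. All came from C57BL/6J mice of the ApcDHep genotype at 3 months of age, so the controls also carried the hepatocyte loss of Apc that this name stands for. Every mouse had received an AAV8 vector with SaCas9 constructs 1 month earlier and tamoxifen (2 mg, 7 days). In 6 WRE-edited libraries (condition DLK1DWRE) the nuclease was aimed at the WRE, a stretch bound by β-catenin that lies upstream of DLK1/DIO3, and in 5 Rosa26-edited libraries at Rosa26, where an edit is widely held to be neutral. The sources used here do not say which share of the cells was edited. The library names carry 3 r-numbers, which are called runs here, and the labels do not say what kind of batch they stand for. Run r770 held WRE-edited 1 to 3 and Rosa26-edited 1 to 3, r595 held WRE-edited 6 and Rosa26-edited 4 and 5, and r711 held WRE-edited 4 and 5 with no control. The group difference therefore came from r770 and r595, while r711 entered only the estimate of the spread. WRE-edited 4 and 6 carry the same number in their library names, and whether they came from 1 animal is not stated. The labels do not say that other replicates were separate animals either, so p-values measure the spread between libraries, which may be technical.

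Bone morphogenetic proteins (BMPs) are secreted ligands that bind paired serine/threonine kinase receptors, which phosphorylate SMAD1, SMAD5 and the product of Smad9. These join SMAD4 and switch on target genes, among them the Id genes and the inhibitory Smad6 and Smad7, whose products feed back on the pathway. In the liver, BMP6 and BMP2 from endothelial cells tell hepatocytes how much iron there is, and the hepatocytes answer with hepcidin, the hormone encoded by Hamp that degrades the iron exporter ferroportin. HFE and transferrin receptor 2 sense iron-loaded transferrin and raise this signal, while the protease TMPRSS6 lowers it by cleaving the co-receptor hemojuvelin. ATOH8 is a basic helix-loop-helix factor, induced by BMP signalling and reported in mice to act on the hepcidin promoter through E-boxes, the CANNTG sites that factors of this class bind.

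The promoters of the members were searched for these sites. RefSeq sequence of GRCm38.p6 for the 250 bases before an annotated start was found for 7 of the 10 members, namely Atoh8, Id2, Id3, Smad6, Hamp, Hfe and Tfr2, the last with 3 start sites. Of these, 2 held GGCGCC, the GC-rich element of BMP-responsive promoters, against 9.59% of 32851 promoters of this length. The Hamp window, chr7:30944030-30944279 on the minus strand, is printed because it holds both a GGCGCC and a STAT-type site, TTCNNNGAA, which stand in capitals.
Hamp promoter: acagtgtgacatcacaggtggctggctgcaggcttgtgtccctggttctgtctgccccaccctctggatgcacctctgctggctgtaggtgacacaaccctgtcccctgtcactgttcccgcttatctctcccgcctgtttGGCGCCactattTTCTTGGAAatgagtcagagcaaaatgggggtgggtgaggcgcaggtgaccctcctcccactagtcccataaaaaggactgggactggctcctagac
With positions counted back from the annotated start, GGCGCC lay at -109 to -104 and TTCTTGGAA at -97 to -89, and 2 CANNTG matches, both CAGGTG, lay at -236 to -231 and -55 to -50. Of the 7 members CANNTG was found in 3, against 66.2% of all promoters, and TTCNNNGAA in 1, against 7.02%. All 3 motifs read the same on both strands.

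A copy of hepcidin, Hamp2, stands nearby on the chromosome, and the 40 bases around the GGCGCC of Hamp are set beside its own to show how alike the pair is. Capitals mark the BMP element of Hamp (chr7:30944116-30944155, minus strand) and the aligned letters of Hamp2 (chr7:30924265-30924304, minus strand).
Hamp: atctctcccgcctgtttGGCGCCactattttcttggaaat
Hamp2: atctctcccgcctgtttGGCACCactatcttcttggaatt
Counted from 1 at the 5′ end, the Hamp base first, the stretches differed by G21A, T29C and A39T, and G21A lies in the element. The 250-base windows were identical at 227 of 247 aligned bases (91.9%). Reads of so similar a pair can be split between them by the authors' counting, but Hamp2 held 109.01 expected counts over all libraries against 28563 for Hamp, 0.0473% to 1.36% of their sum in a library.

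Short stretches of the other promoters that the results return to follow, with GGCGCC in capitals for Id2 (chr12:25096301-25096340, minus strand) and for Smad9 (chr3:54755519-54755548, plus strand), a transducer gene outside the 10 members. For Atoh8 (chr6:72235781-72235827, minus strand) the capitals mark the E-box CACGTG.
Id2: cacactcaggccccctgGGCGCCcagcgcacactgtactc
Smad9: gcacggccgcctGGCGCCcttccagcgcgg
Atoh8: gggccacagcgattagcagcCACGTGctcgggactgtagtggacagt
The start sites used for Smad9 and Atoh8 lie inside the outer bounds of these genes on the RefSeq map. The element lay at -231 to -226 in Id2 and at -51 to -46 in Smad9. The Atoh8 window held 2 CANNTG matches, CACGTG at -230 to -225 and CAGCTG at -59 to -54, and no GGCGCC. The windows of Id3, Smad6, Hfe and Tfr2 held none of the 3 motifs. A match is a string of letters and not a measured binding site. Outside the members only Hamp2 and Smad9 were searched, and Smad9 has the largest positive value of the pathway lists below. Its match cannot be set beside other genes of those lists, which were not searched.

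Libraries held 20727036 to 38935135 expected counts, the read counts that RSEM assigns to genes. The share taken by mitochondrial ribosomal RNA was 2.29% to 3.00% in r595 and 19.02% to 29.09% in the other runs, so run was a term in the fit. As a check of the edit, Rian, a non-coding RNA of the DLK1/DIO3 locus, differed by -2.30 ± 0.26 on the log2 scale (SE; edgeR adjusted p = 0.0188). All 4 transcripts of the locus that were tested had negative values. In edgeR only Rian of these was called, while DESeq2, which called 0.563% of all genes, called all 4. The value of Rian lay between -2.45 and -1.85 in 23 alternatives, of which 10, such as leaving out WRE-edited 6 (adjusted p = 0.317), lost the call. The 8 hepatocyte markers summed to 45380 to 62870 CPM (counts scaled to library size with TMM factors) in WRE-edited libraries and 48260 to 61650 CPM in Rosa26-edited libraries, with none at 0. Rosa26-edited 1 stood apart in 12 early genes of tissue dissociation, at 1045 CPM in sum, against 159.5 to 362.7 CPM in the WRE-edited libraries.

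Atoh8 had the largest difference of the 10 genes in both runs that hold both groups. In r770 it stood at 2.45, 3.47 and 3.72 CPM in WRE-edited 1 to 3, against 1.46, 1.34 and 1.43 CPM in Rosa26-edited 1 to 3. In r595 it stood at 7.19 CPM in WRE-edited 6, against 2.26 and 2.61 CPM in Rosa26-edited 4 and 5. The groups did not overlap in either run, which was true in the same direction of 1.88% of all genes tested.

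The WRE-edited libraries of r711, which has no control, held 1.28 CPM of Atoh8 in WRE-edited 4 and 2.46 CPM in WRE-edited 5. WRE-edited 4 was thus lower than all 5 Rosa26-edited libraries, and over all 11 libraries the groups overlapped. Group means were 3.43 ± 2.04 CPM in WRE-edited libraries (SD, n = 6) and 1.82 ± 0.58 CPM in Rosa26-edited libraries (SD, n = 5). With run as a term the log2 fold change was 1.31 ± 0.23 (SE), a fold of 2.48. The log2 difference was 1.13 within r770 and 1.54 within r595.

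Atoh8 was a rare transcript, with 27 to 164 expected counts in a WRE-edited library and 40 to 71 in a Rosa26-edited library. Per length, its median was 0.91 TPM (abundance corrected for transcript length) over the 11 libraries, with a range of 0.5 to 2.5 TPM in WRE-edited and 0.45 to 1.13 TPM in Rosa26-edited libraries. In order of median level it stood between Smad6 at 0.6 TPM and Smad7 at 1.9 TPM, followed by Id1 at 4.13 TPM. Next came Hfe at 15.91 TPM, Id3 at 30.95 TPM, Id2 at 33.33 TPM, Tfr2 at 40.43 TPM, Tmprss6 at 44.92 TPM and Hamp at 192.3 TPM. Neighbours in this order overlapped in their ranges over libraries except Id1 with Hfe, Hfe with Id3 and Tmprss6 with Hamp. Hamp had the widest range, 82.5 to 443.3 TPM in WRE-edited and 64.5 to 923.9 TPM in Rosa26-edited libraries. On the RefSeq map Atoh8 spans chr6:72206174-72235780 and shares 1107 bases with the lncRNA gene Gm52906. The sources used here do not say whether counting used strand, so reads of the 2 genes in that stretch may not be told apart.

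**Figure D1:**
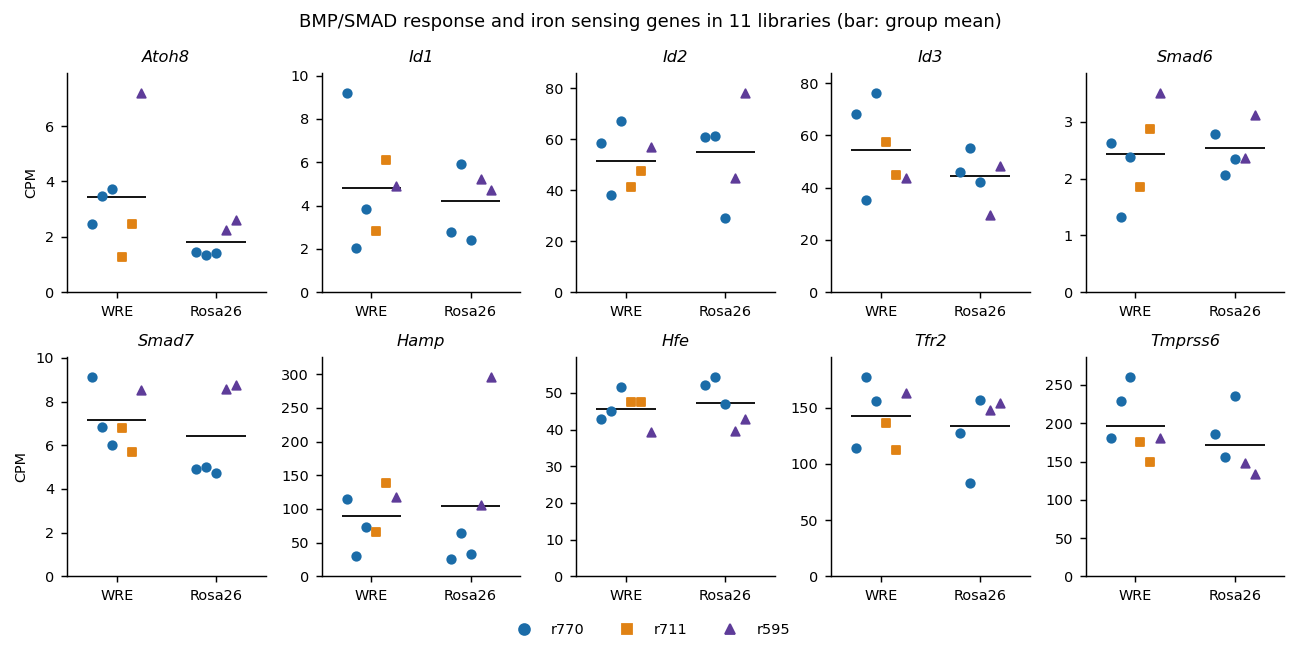
CPM of each of the 10 genes (vertical axis, from 0, each panel with its own scale) in 6 WRE-edited libraries on the left and 5 Rosa26-edited libraries on the right; each point is a library, its marker gives the run and the bar is the group mean. In r770 (circles) the groups are apart for Atoh8 and Smad7, and for the other 8 genes they overlap.

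The Id genes encode helix-loop-helix proteins without a DNA-binding region that capture E proteins, and Id1 is the usual readout of BMP signalling in hepatocytes. In r770 it stood at 9.19, 2.05 and 3.86 CPM in WRE-edited 1 to 3, against 2.77, 5.92 and 2.43 CPM in Rosa26-edited 1 to 3. In r595 it stood at 4.91 CPM in WRE-edited 6, between the 5.22 and 4.74 CPM of Rosa26-edited 4 and 5. In r711 it stood at 2.81 and 6.10 CPM in WRE-edited 4 and 5. The groups overlapped in both runs, and the highest and the lowest of all 11 values were both WRE-edited libraries of r770. The log2 fold change of Id1 was 0.30 ± 0.42 (SE; 95% interval -0.53 to 1.13; edgeR adjusted p = 0.812), and -0.22 ± 0.36 without WRE-edited 1.

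Id2 and Id3, which restrain differentiation factors in many tissues, also overlapped between groups in both runs. Id2 ranged from 38.2 to 67.3 CPM in WRE-edited libraries, and from 29.1 to 78.1 CPM in Rosa26-edited libraries. Its log2 fold change was 0.05 ± 0.25 (SE; 95% interval -0.45 to 0.54; edgeR adjusted p = 0.955). Id3 ranged from 35.4 to 76.2 CPM in WRE-edited libraries and from 29.7 to 55.4 CPM in Rosa26-edited libraries. Its log2 fold change was 0.27 ± 0.22 (SE; 95% interval -0.16 to 0.71; edgeR adjusted p = 0.667), with log2 differences of 0.26 in r770 and 0.20 in r595.

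Smad6 and Smad7 encode the inhibitory SMADs, which block receptors and SMAD4 binding. Smad7 was the only member besides Atoh8 whose groups did not overlap in r770. It stood there at 9.11, 6.83 and 6.03 CPM in WRE-edited 1 to 3, against 4.91, 5.00 and 4.75 CPM in Rosa26-edited 1 to 3. In r595 it stood at 8.55 CPM in WRE-edited 6, just below the 8.58 and 8.78 CPM of Rosa26-edited 4 and 5. In r711 it stood at 6.80 and 5.70 CPM in WRE-edited 4 and 5. Among all genes tested, 3.29% were apart and higher in r770, and 4.34%, with none of the members, were apart and lower.

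The log2 difference of Smad7 was 0.56 within r770 and -0.02 within r595, and the fitted log2 fold change was 0.40 ± 0.17 (SE; 95% interval 0.06 to 0.74). It had an unadjusted p of 0.0385 in edgeR's quasi-likelihood test and an adjusted p of 0.469, and it missed the threshold of 0.05. The difference between the runs, -0.60 ± 0.34 on the log2 scale, had an adjusted p of 0.71 in the edgeR interaction test. Without WRE-edited 1 the log2 fold change was 0.25 ± 0.16. Smad7 shares 163 bases with the lncRNA gene Gm41776.

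Smad6 ranged from 1.33 to 3.51 CPM in WRE-edited libraries and from 2.07 to 3.12 CPM in Rosa26-edited libraries. In r595 WRE-edited 6, at 3.51 CPM, stood above both controls, at 2.37 and 3.12 CPM, as 40.4% of all genes did in this comparison of 1 library with 2, while in r770 WRE-edited 2, at 1.33 CPM, was the lowest library. The log2 fold change was -0.02 ± 0.26 (SE; 95% interval -0.53 to 0.49; edgeR adjusted p = 0.986), with log2 differences of -0.23 in r770 and 0.36 in r595.

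Hamp (chr7:30942368-30944029) varied widely between libraries of the same group. In r770 it stood at 114.6, 30.5 and 73.8 CPM in WRE-edited 1 to 3, against 25.6, 64.5 and 33.7 CPM in Rosa26-edited 1 to 3. In r595 it stood at 117.0 CPM in WRE-edited 6, between the 105.3 and 295.7 CPM of Rosa26-edited 4 and 5. In r711 it stood at 65.4 and 137.8 CPM in WRE-edited 4 and 5. The groups overlapped in both runs, and the highest library of all was a control.

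The log2 difference of Hamp was 0.74 within r770 and -0.59 within r595, opposite in sign. The fitted value was -0.03 without WRE-edited 1, 0.66 without Rosa26-edited 5 and 0.82 without WRE-edited 6. The fitted log2 fold change over all libraries was 0.38 ± 0.56 (SE; 95% interval -0.72 to 1.48; edgeR adjusted p = 0.82), and the difference between the runs had an adjusted p of 0.747 in the edgeR interaction test. At this spread a change of more than 2-fold in the direction of Atoh8 lay inside the interval. Hamp differed several-fold in level between libraries of the same group. Whether the BMP element, the STAT-type site and the 2 E-boxes printed above have a part in this was not tested.

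The 3 genes of iron sensing were steadier. Hfe, whose product binds transferrin receptors, ranged from 39.2 to 51.5 CPM in WRE-edited libraries and from 39.5 to 54.3 CPM in Rosa26-edited libraries, with a fitted log2 difference of -0.12 ± 0.11 (SE; edgeR adjusted p = 0.699). It was the member with the smallest error, and its 95% interval of -0.33 to 0.09 does not reach a 2-fold change in either direction. Tfr2, the hepatocyte sensor of iron-loaded transferrin, ranged from 112.6 to 177.1 CPM in WRE-edited libraries and from 83.3 to 156.5 CPM in Rosa26-edited libraries, with a fitted log2 difference of 0.23 ± 0.18 (SE; edgeR adjusted p = 0.666). Tmprss6, the brake on hepcidin, ranged from 149.4 to 260.2 CPM in WRE-edited libraries and from 134.2 to 235.7 CPM in Rosa26-edited libraries, with a fitted log2 difference of 0.26 ± 0.15 (SE; edgeR adjusted p = 0.553).

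In r595 WRE-edited 6 was above both controls in Tfr2 and Tmprss6, at 162.8 CPM against 147.5 and 154.2 CPM and at 181.2 CPM against 148.1 and 134.2 CPM, where 40.4% of all genes were above both. Hfe was below both, at 39.24 CPM against 39.54 and 42.89 CPM, where 34.4% of all genes were. In r770 the groups overlapped for both genes. Their log2 differences were positive in each run, 0.30 and 0.11 for Tfr2 and 0.22 and 0.36 for Tmprss6 in r770 and r595.

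**Figure D2:**
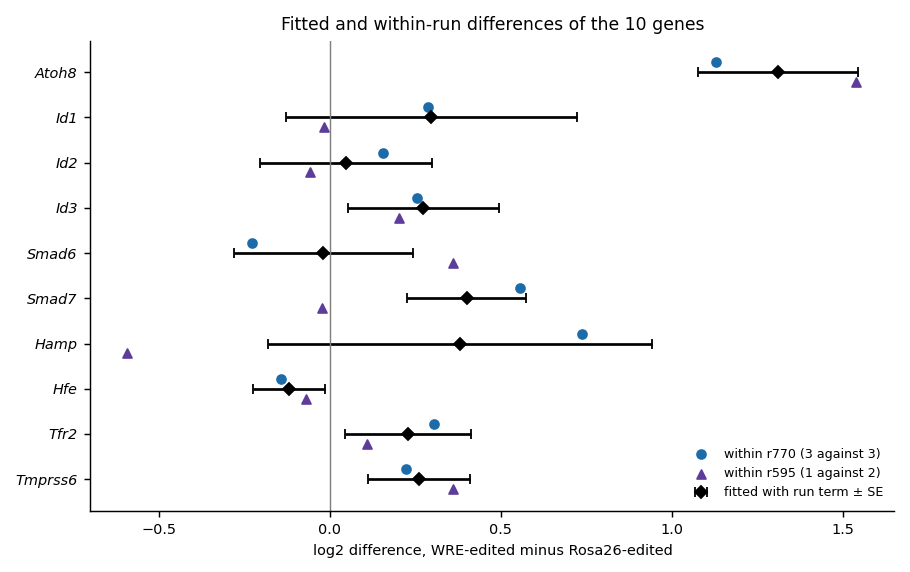
Log2 difference, WRE-edited minus Rosa26-edited, for each of the 10 genes: diamonds are the fit with a run term and whiskers its SE, circles are the difference within r770 (3 against 3) and triangles that within r595 (1 against 2). Atoh8 lies at 1.31 and the other 9 genes between -0.12 and 0.40, with the 2 runs on opposite sides of 0 for Id1, Id2, Smad6, Smad7 and Hamp.

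The 9 members other than Atoh8 were set beside all genes tested. None of the 9 passed an adjusted p of 0.05 in edgeR, where 1 of all 14393 genes did (0.00695%), and none passed in DESeq2, where 81 did (0.563%). At an unadjusted p under 0.05 in edgeR 1 of the 9 passed, Smad7, where 10.1% of all genes did. The log2 fold change was positive for 7 and negative for 2 of the 9, and it was positive for 51.7% of all genes. The median over the 9 was 0.26, against 0.01 over all genes, and it was 0.00 without WRE-edited 1. Within r770 the median was 0.26 and within r595 it was -0.02. The difference was positive in both runs for 3 of the 9, Id3, Tfr2 and Tmprss6, where it was positive in both for 32.3% of all genes. It was negative in both for 1 of the 9, Hfe, and for 28.6% of all genes. None of the 9 had a called difference between the runs. The edgeR interaction test called 0 of all 14393 genes, and DESeq2 called 11 (0.0764%). At an unadjusted p under 0.05 the edgeR interaction test had 1095 of all genes (7.61%). The smallest unadjusted p of the 9 in that test was 0.106, for Smad7.

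The level of Atoh8 over the 11 libraries was also set beside that of each other member, as a description with no test, since these values hold the group difference it was chosen for. After each run was centred on its mean, Pearson's r of log2 CPM between Atoh8 and the 9 other genes lay between -0.37 for Hfe and 0.56 for Tmprss6, and Spearman's rho between -0.33 and 0.55. The r with Tmprss6 was 0.22 without the 2 libraries farthest from the median of Atoh8. With each group and run centred on its own mean, r lay between -0.81 for Smad7, which was 0.37 with runs centred alone, and 0.36 for Hfe. With Id1 the r was 0.08 and rho was -0.08, with runs centred. WRE-edited 2, for example, had 3.47 CPM of Atoh8, above all controls of its run, and the lowest Id1 of all 11 libraries.

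Among the other members some pairs varied together, and those named here were picked after their values were seen. Id1 and Hamp had an r of 0.78 (exact permutation p = 0.0128, adjusted p = 0.231 over the 36 pairs of the 9 genes; rho = 0.68, p = 0.0573), and r was 0.63 without the 2 libraries farthest from the median of Id1. Within r595 the order of these 2 genes was opposite. Rosa26-edited 5, with the highest Hamp of all libraries at 295.7 CPM, had the lowest Id1 of that run, at 4.74 CPM. Id1 was nearly level there, with 5.22 CPM in the highest library, Rosa26-edited 4, so its order carries little weight. Tfr2 and Tmprss6 had an r of 0.86 (exact permutation p = 0.00428, adjusted p = 0.154; rho = 0.77, p = 0.0176), and r was 0.86 without the 2 farthest. Id1 and Tfr2 ran against each other, with an r of -0.74 (exact permutation p = 0.0499, adjusted p = 0.367; rho = -0.86, p = 0.0189), and r was -0.73 without the 2 farthest. Id2 and Id3 had an r of 0.72 (exact permutation p = 0.0428, adjusted p = 0.367; rho = 0.74, p = 0.0321), and r was 0.63 without the 2 farthest. No pair of the 36 passed an adjusted p of 0.05. With each group and run centred on its own mean, r was 0.80 for Id1 with Hamp, 0.88 for Tfr2 with Tmprss6 and -0.91 for Id1 with Tfr2.

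**Figure D3:**
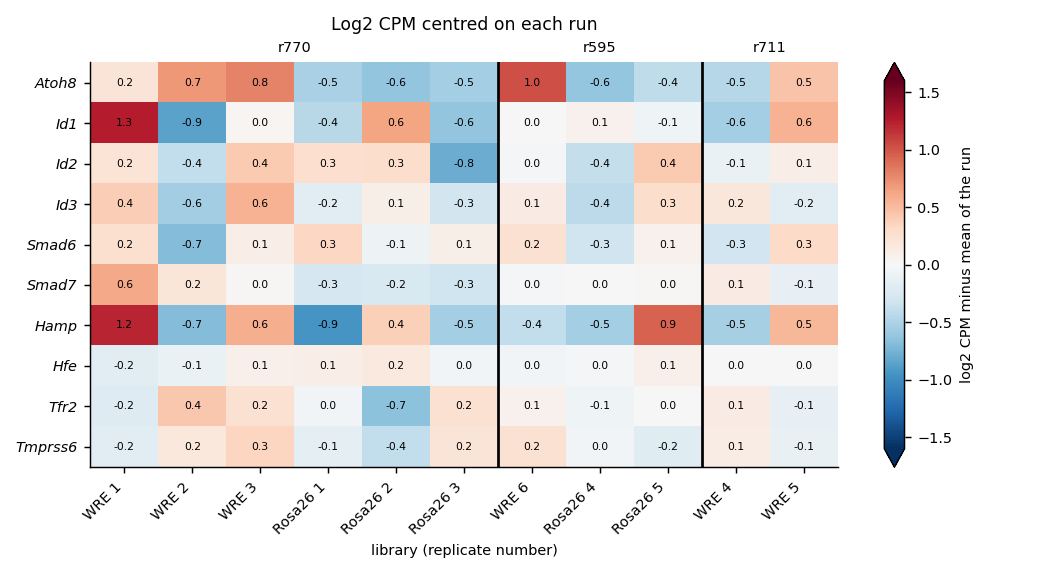
Log2 CPM of the 10 genes minus the mean of the run (colour and printed value), with libraries grouped by run and WRE-edited libraries to the left of Rosa26-edited libraries in each; WRE and Rosa26 stand for the edited site. The Atoh8 row splits by group in r770 and r595. Id1 and Hamp are high together in WRE-edited 1 and 5 and Rosa26-edited 2. They are low together in WRE-edited 2 and 4 and Rosa26-edited 1 and 3. In r595 Id1 is nearly level, from -0.06 in Rosa26-edited 5 to 0.07 in Rosa26-edited 4, while Hamp reaches 0.94 in Rosa26-edited 5.

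**Figure D4:**
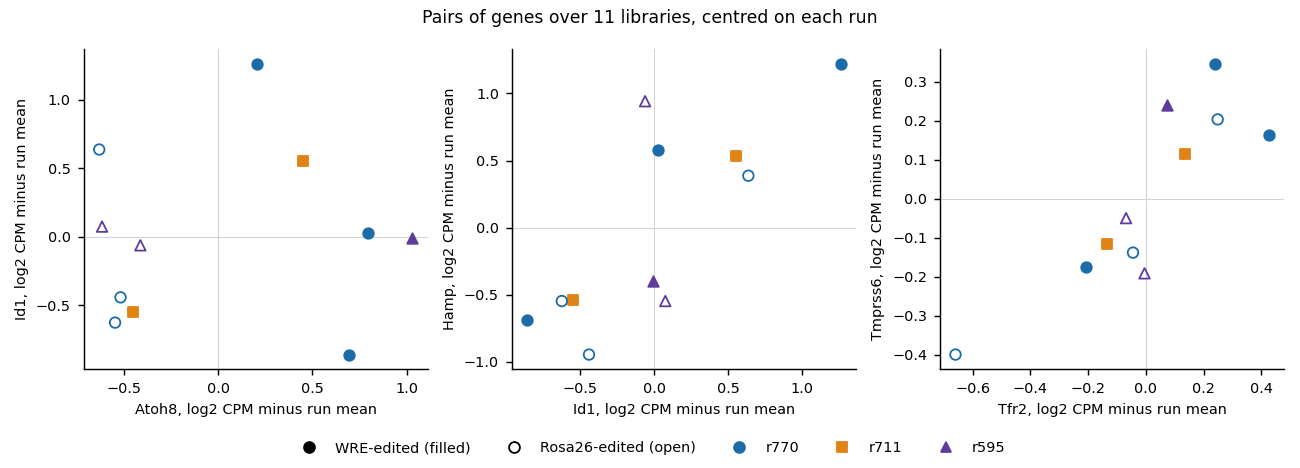
Log2 CPM minus the run mean for 3 pairs of genes, with a point for each of 11 libraries (filled for WRE-edited, open for Rosa26-edited, marker by run). Atoh8 and Id1 (left, r = 0.08) show no line, whereas Id1 and Hamp (middle, r = 0.78) and Tfr2 and Tmprss6 (right, r = 0.86) rise together. Within r595 alone Id1 is nearly level while Hamp differs between libraries.

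The genes whose pattern over the 11 libraries was most like that of Atoh8 were outside the axis. By Pearson's r of run-centred log2 CPM with 14392 other genes, the closest 5 were Gtpbp6 (0.97), Coro1c (0.97), Map3k5 (0.96), Abcf1 (0.96) and Lsm14b (0.95), given as a description of these libraries. The quartiles over all genes were -0.34, 0.04 and 0.38, and 16.4% of genes were over 0.5. Of the members only Tmprss6 was over 0.5, at rank 1775, and Id1 stood at rank 6777.

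The rest of the pathway was read from lists of its other genes, fixed by function and, like the members, with earlier results known. Over 10 such lists 82 genes were tested, and none passed an adjusted p of 0.05 in edgeR. At an unadjusted p under 0.05, 5 were higher and 3 lower, where 4.95% and 5.14% of all genes were. DESeq2 called 2 of the 82, Smad9 and Tfrc, where it called 81 of all 14393 genes (0.563%).

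Smad9, whose product is a receptor-regulated SMAD of the BMP branch beside SMAD1 and SMAD5, had the largest positive value of these lists. It stood at 2.45, 2.66 and 2.49 CPM in WRE-edited 1 to 3, against 0.80, 1.83 and 1.53 CPM in Rosa26-edited 1 to 3 of r770. In r595 it stood at 4.52 CPM in WRE-edited 6, against 1.295 and 1.73 CPM in Rosa26-edited 4 and 5, and in r711 at 2.52 and 3.47 CPM in WRE-edited 4 and 5. Every WRE-edited library was above every Rosa26-edited library, as for 22 genes of 14393 (0.153%). These levels rest on 53 to 103 expected counts in a WRE-edited library and 27 to 60 in a Rosa26-edited library.

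On the RefSeq map Smad9 spans chr3:54755455-54801662. Its log2 fold change was 1.097 ± 0.27 (SE), a fold of 2.14, with log2 differences of 0.91 in r770 and 1.55 in r595. In edgeR the p was 0.00151 and the adjusted p 0.336, which misses the threshold, and in DESeq2 the adjusted p was 0.0361. Leaving out each library in turn gave 0.868 to 1.296, with 0.96 without Rosa26-edited 1. Over the 11 libraries its run-centred r with Atoh8 was 0.85 (rank 72), and 0.28 with each group and run centred. The other transducers were nearer to 0: Smad4, the common partner, had a fitted log2 difference of 0.33 ± 0.15 (SE; edgeR adjusted p = 0.495), Smad5 0.10 ± 0.11 and Smad1 -0.02 ± 0.13.

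Among 7 ligand genes 3 had positive and 4 negative values, and none passed an unadjusted p of 0.05 in edgeR. Gdf2, which encodes BMP9 made by stellate cells, had the lowest at -1.07 ± 0.49 on the log2 scale (SE; edgeR adjusted p = 0.495), with log2 differences of -0.57 in r770 and -2.31 in r595 and a value of -0.56 without WRE-edited 6. Bmp4 had -0.76 ± 0.39 and Bmp5 -0.74 ± 0.47. Bmp6, the main iron-regulated ligand, had 0.01 ± 0.21 and Bmp2 0.18 ± 0.23; these 2, Smad1 and Hjv are named for their place in the pathway and after their values were seen. Among 10 receptor genes 6 had positive and 4 negative values. Acvr1, the type I receptor ALK2, had 0.41 ± 0.19 (SE; edgeR adjusted p = 0.487), Acvr2b 0.50 ± 0.27, Bmpr1a, the type I receptor ALK3, -0.16 ± 0.10 on the log2 scale, and Hjv, the co-receptor hemojuvelin, 0.13 ± 0.19. The groups of Bmpr1a were apart and lower in r770 and r595, as for 2.43% of all genes. In r711, however, WRE-edited 4 and 5 held 53.5 and 58.3 CPM of Bmpr1a, above the highest control at 50.9 CPM. Those of Acvr2b were apart and higher in r770, as for 3.29% of all genes, and overlapped in r595.

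Of 12 inhibitor genes 8 were tested, with 5 positive and 3 negative values; Nog, Grem1, Sostdc1 and Erfe were below the count filter. Smurf1, a ubiquitin ligase that removes receptors and SMADs, had a fitted log2 difference of 0.35 ± 0.16 (SE; edgeR adjusted p = 0.473). Its relative Smurf2 had 0.23 and Fkbp1a, which holds type I receptors inactive, 0.25. Of 5 other BMP targets only Id4 was tested, at -0.66 ± 0.39 (SE; edgeR adjusted p = 0.569), and Msx1, Msx2, Hey1 and Gata2 were below the filter. None of these passed the adjusted threshold.

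E proteins are the partners that Id proteins capture and that many tissue-specific helix-loop-helix factors pair with, and 2 of the 3 genes were lower at an unadjusted p under 0.05 in edgeR, where 5.14% of all genes were. Tcf4 stood at 16.0, 14.0 and 9.75 CPM in WRE-edited 1 to 3, against 18.3, 15.8 and 22.2 CPM in Rosa26-edited 1 to 3, and at 11.97 CPM in WRE-edited 6, against 18.9 and 24.4 CPM in Rosa26-edited 4 and 5. Its groups overlapped in r770 by 1 library a side, and its log2 fold change was -0.61 ± 0.17 (SE; edgeR adjusted p = 0.384). Tcf12 had -0.34 ± 0.13 (SE; edgeR adjusted p = 0.441) and Tcf3 0.19. The positive value of Tcf3 rests on WRE-edited 6, and without that library it was -0.07.

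Of 20 genes of iron transport and storage 19 were tested, 9 with positive and 10 with negative values. Tfrc, which encodes transferrin receptor 1 and is raised in cells short of iron, stood at 60.3, 38.2 and 23.4 CPM in WRE-edited 1 to 3, against 93.8, 66.4 and 62.1 CPM in Rosa26-edited 1 to 3. In r595 it stood at 25.2 CPM in WRE-edited 6, against 65.0 and 50.9 CPM in Rosa26-edited 4 and 5. The groups were apart in both runs, as for 2.43% of all genes in the lower direction, but WRE-edited 5 of r711, at 92.5 CPM, was near the highest control.

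The log2 fold change of Tfrc was -0.97 ± 0.27 (SE), with an adjusted p of 0.384 in edgeR and 0.0485 in DESeq2. Fth1, the heavy chain of the iron store ferritin, stood above its controls in r770 and r595, as 1.88% of all genes did. Its fitted log2 difference was 0.34 ± 0.12 (SE; edgeR adjusted p = 0.441). In r595 it was 616.0 CPM in WRE-edited 6, against 407.6 and 412.0 CPM in Rosa26-edited 4 and 5. In r770 it was 414.0, 418.7 and 500.2 CPM in WRE-edited 1 to 3, against 357.2, 407.0 and 371.5 CPM in Rosa26-edited 1 to 3. In r711, however, it was 300.1 and 262.2 CPM in WRE-edited 4 and 5, lower than in all 5 Rosa26-edited libraries. Ftl1, the light chain, had 0.34 ± 0.16 (SE; edgeR adjusted p = 0.498). Slc40a1, the ferroportin gene, named after its value was seen, had -0.29 ± 0.20 (SE; edgeR adjusted p = 0.613).

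The inflammatory input to hepcidin runs through interleukin 6 and STAT3. Of its 8 genes 5 had positive and 3 negative values, with Stat3 at 0.33 ± 0.14 on the log2 scale (SE; edgeR adjusted p = 0.469) and the receptor chain Il6st at 0.15. The 8 genes summed to 1063 CPM in Rosa26-edited 5, the library with the highest Hamp. The sum was 385.5 to 494.4 CPM in the other controls and 421.3 to 706.9 CPM in WRE-edited libraries. The part of this input in the Hamp level was not tested. Among 10 tested genes of the TGF-β and activin branch 6 had positive and 4 negative values, and none had an unadjusted p under 0.05 in edgeR; Ccn2 had 0.87 ± 0.53, and 0.30 without WRE-edited 6, and Tgfb2 had -0.61, and -0.07 without Rosa26-edited 5. Of the 12 early genes of dissociation 11 had negative fitted values, with a median of -0.58, beside the high Rosa26-edited 1. Within r770 1 of the 12 was positive and within r595 8 were, with a median log2 difference of 0.16 there, and none was positive in both. The part of that library in the differences of the pathway was measured by leaving it out: Atoh8 was then 1.35, Smad7 0.37, Hamp 0.12 and Tfrc -0.85 on the log2 scale.

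**Figure D5:**
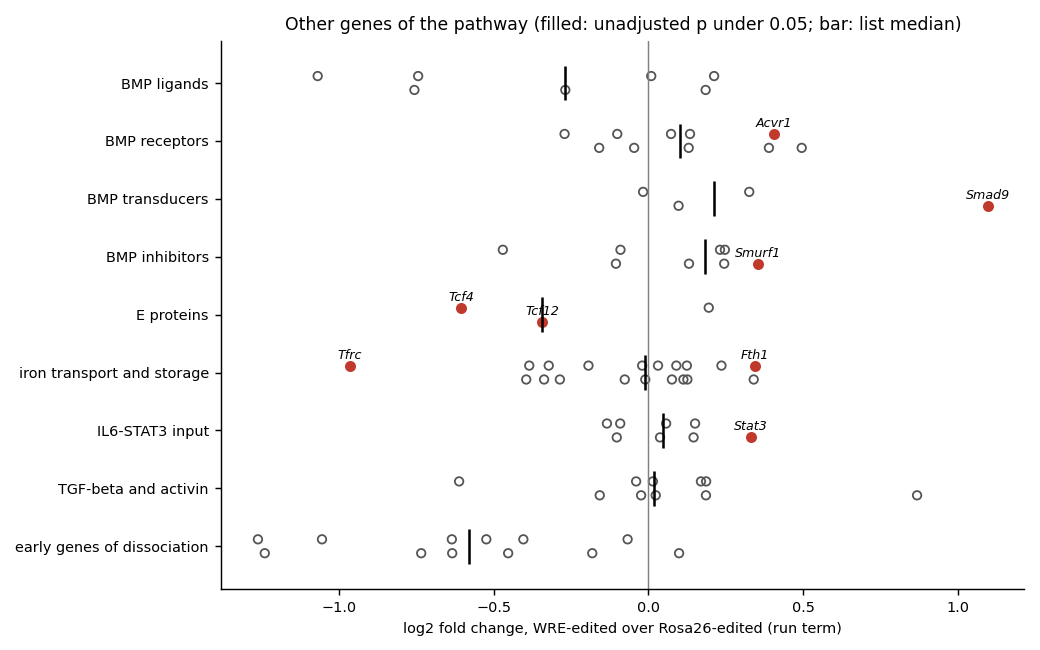
Log2 fold change, WRE-edited over Rosa26-edited with a run term, of the tested genes of 9 lists (rows); each circle is a gene, filled and named where its unadjusted p in edgeR was under 0.05, and the bar is the median of the list. Smad9 lies farthest right at 1.097, and Tfrc at -0.97 is the lowest of the filled genes.

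Several of these genes are also made by other liver cells, whose RNA was present at low levels. Stellate and fibroblast markers had negative values in both runs for 8 of 8 genes, and their sum was 43.1 to 108.4 CPM in WRE-edited libraries and 76.6 to 106.2 CPM in Rosa26-edited libraries, none at 0. Endothelial markers had negative fitted values for 8 of 8 genes, though 4 of the 8 were positive within r595, with a sum of 121.1 to 191.8 CPM in WRE-edited libraries and 120.4 to 195.9 CPM in Rosa26-edited libraries. Macrophage markers had negative values for 7 of 7 genes, with sums of 189.4 to 319.0 CPM in WRE-edited and 184.5 to 490.0 CPM in Rosa26-edited libraries. Of 5 cholangiocyte markers 2 were tested, and the sum was 6.09 to 13.2 CPM in WRE-edited and 7.06 to 24.1 CPM in Rosa26-edited libraries, with Krt19, Krt7 and Epcam below the filter. Of 8 blood cell markers 6 were tested, of which 5 were negative in both runs, and Hba-a1, a red cell gene, at -2.44 ± 0.71 had an adjusted p of 0.384 in edgeR and 0.0256 in DESeq2. Blood cell markers summed to 25.9 to 36.6 CPM in WRE-edited and 27.2 to 79.6 CPM in Rosa26-edited libraries. The part of these cells in the values of Gdf2, Bmp4, Tcf4 and Tcf12 was not tested, and in such bulk samples fewer cells of a type and less RNA per cell cannot be told apart.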

How the data were processed

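Each library came with a table of expected counts and TPM per Ensembl gene that the authors deposited. STAR 2.7.6a, RSEM 1.3.1 and GRCm38 are named in the submitters' processing notes. The tables also give other values, such as effective lengths, per the file headers. The authors' matrix of normalized signal (15322 genes), for which those notes name DESeq2 1.26.0 and R 3.6.3, served as an alternative. No source used here names the annotation version or the strand setting. Deposited miRNA counts were not analysed here.

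Expected counts were rounded to whole numbers. The test was edgeR 4.0.16 in R 4.3.3 on 11 libraries: filterByExpr by group (minimum count 10, minimum total 15), TMM, run and group as terms, glmQLFit with robust estimation, two-sided p adjusted by Benjamini-Hochberg over 14393 genes, threshold 0.05. SE came from the test statistic, and 95% intervals are 1.96 SE. This normal multiplier makes the intervals narrower than the quasi-likelihood test itself would. Log2 CPM (prior count 2) gave the within-run differences and the correlations, whose p ran over all 8640 permutations within runs. The difference between runs was a group by run interaction. DESeq2 1.42.0 and limma 3.58.1 were alternatives. The fit was also run on simulated counts, which held no difference between runs and so do not test the run term.

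Members and lists were chosen with earlier results of these data known. Named genes were the 10 members, up to 3 genes per list by smallest p, any called gene, and the 5 closest to Atoh8. Genes named outside this rule are marked in the text, or are markers. Of the DLK1/DIO3 transcripts only Rian is given with its value. Names matched for 55450 of 55536 identifiers. Libraries of a group differed beyond counting noise in all 25 pairs (chi-square per degree of freedom 25.4 to 618.3).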

Additional observations from a re-analysis of the deposited data

How the results depend on the processing

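In all 23 alternatives none of the 9 members other than Atoh8 was called. The number of genes called over all genes, 1 as reported, was 81 with DESeq2, 450 with no filter on low counts, 0 with no run term, 2 with the replicate block and the run term, 0 in r770 alone, 0 with r711 left out (an alternative chosen after seeing the data), and 0 to 2 when 1 library was left out. The call of Rian, the 1 gene as reported, was lost in 10 of the 23. The cause was not tested. With no filter on low counts Smad9 (edgeR adjusted p = 0.0223), Tfrc, Gdf2 and Tcf4 were called. So were the early genes of dissociation Btg2 (edgeR adjusted p = 2.684e-11), Fos (1.901e-07) and Nr4a1 (0.001646), which were highest in Rosa26-edited 1. In the fit with the filter Btg2 was -1.24, and -0.26 without that library. The log2 fold change of Atoh8 was 1.19 to 1.43 when 1 library was left out, 0.92 with no run term, 0.54 with the replicate block and no run term, and 0.86 with the counts of WRE-edited 4 and 6 added up, without a run term. The median over the 9 members was 0.0021 to 0.28 when 1 library was left out, lowest without WRE-edited 1.

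Some small values changed sign. Id2 was -0.088 with no run term, -0.087 with the replicate block and no run term, -0.077 with the 2 libraries summed, and -0.14 to 0.18 when 1 library was left out. Hamp was -0.22 with no run term, -0.23 with the 2 libraries summed, and -0.0335 to 0.82 when 1 library was left out. Tcf3 was -0.067 with no run term, -0.079 with the replicate block and the run term, -0.40 with the block alone, -0.061 in r770 alone, -0.16 with the 2 libraries summed, and -0.0726 to 0.29 when 1 library was left out. With 1 library left out Id1 was -0.22 to 0.61, Smad6 -0.19 to 0.17 and Il6st -0.0405 to 0.24. With the replicate block and no run term Bmpr1a was 0.016, Fkbp1a -0.066, Fth1 -0.082 and Stat3 -0.032.

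Same-numbered replicates showed low correlations of their deviations (-0.246 to 0.154 over the 5 numbers), and the numbers were not taken as pairs. Numbers 4 and 5 share the value 0.154, so the 5 are not separate checks and cannot exclude a pairing. Rare transcripts such as Atoh8, Smad6 and Smad9 rest on fewer than 200 counts a library, and r595 holds 1 WRE-edited library. Leaving out 1 library moved other values more than 1.5 times: without WRE-edited 6 Acvr1 was 0.27, without WRE-edited 2 Smad4 was 0.18 and Stat3 0.19, and without WRE-edited 3 Bmp5 was -0.45.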
